A study of Mus musculus with 36 samples.

Results

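The 4 autosomal H3K27me3 peak lists of a mouse hippocampus study are described here, 1 list for each combination of genotype and time. They were chosen by mark: every deposited peak list for H3K27me3 was taken, and peaks off the 19 autosomes were set aside. That gave 310014 peaks out of 4097919 autosomal peaks in the 28 lists of 7 histone marks. The mice were females of 3 months that carried both CK-p25 transgenes (CKp25) and their control littermates (CK), and the hippocampus was taken 2 or 6 weeks after p25 was switched on. The groups are CKp25_2wk with its control CK_2wk, and CKp25_6wk with its control CK_6wk; CK_6wk was also set against CK_2wk, to show how far lists of 1 genotype differ. In the CK-p25 line p25, an activator of the kinase Cdk5, is driven in forebrain excitatory neurons, and neuron loss follows; the labels do not say which transgene, if any, the littermates carried. Each list holds peaks over a whole cell extract of the same group, and nothing says how many mice it stands for. Differences between lists therefore carry no replicate error and were not tested.

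H3K27me3 is the trimethyl mark that Polycomb repressive complex 2 (PRC2) places on lysine 27 of histone H3. Ezh1 or Ezh2 is the catalytic subunit, Eed binds the finished mark, and Suz12 holds the complex together. Cbx proteins of PRC1 read the mark, and Kdm6a and Kdm6b remove it. The mark lies over silent developmental genes, often as broad domains, of which the Hox gene clusters are the textbook case. Active gene bodies carry H3K36me3 instead. In bulk hippocampus, fewer cells of a type and less of the mark in each cell cannot be told apart.

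Fewer H3K27me3 peaks were listed in CKp25 than in CK at both times, and the lists covered less of the autosomes. CKp25_2wk held 55747 peaks, against 84651 in CK_2wk, a ratio of 0.659. CKp25_6wk held 80428 peaks, against 89188 in CK_6wk, a ratio of 0.902. The covered length was 26.4 Mb in CKp25_2wk and 34.6 Mb in CK_2wk (ratio 0.765), and 36.5 Mb in CKp25_6wk and 43.5 Mb in CK_6wk (ratio 0.838). These lengths come to 1.07%, 1.40%, 1.48% and 1.76% of the autosomes. Between the control lists the covered length differed by a similar factor: CK_6wk over CK_2wk gave a ratio of 1.26, with 1.05 for the number of peaks. Among the other 6 marks the same peak ratios lay between 0.768 (H3K9me3) and 1.19 (H3K4me3) at 2 weeks, and between 0.988 (H3K4me1) and 1.12 (H3K27ac) at 6 weeks. At both times H3K27me3 had the lowest ratio of peak numbers among the 7 marks; in covered length H3K9me3 was lower at 2 weeks, at 0.726.

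The shortfall at 2 weeks was nearly all among weak peaks. Of peaks whose deposited −log10 p was under 5, CKp25_2wk held 29598 and CK_2wk held 57154, a ratio of 0.518. Of peaks at 5 or above, CKp25_2wk held 26149 and CK_2wk held 27497, a ratio of 0.951. At 6 weeks the ratios of weak and of stronger peaks were close. Weak peaks numbered 43570 in CKp25_6wk against 49169 in CK_6wk (ratio 0.886). Stronger ones numbered 36858 in CKp25_6wk against 40019 in CK_6wk (ratio 0.921). The strongest peaks, at 10 or above, numbered 3124 in CKp25_2wk and 3678 in CK_2wk, but 6370 in CKp25_6wk and 5491 in CK_6wk. That is fewer in CKp25 at 2 weeks and more in CKp25 at 6 weeks. The control lists differed more than either pair in this range, with a CK_6wk over CK_2wk ratio of 1.49. The read depth of the ChIP and input libraries is unknown here, and its part in the number of weak peaks was not tested.

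**Figure D1:**
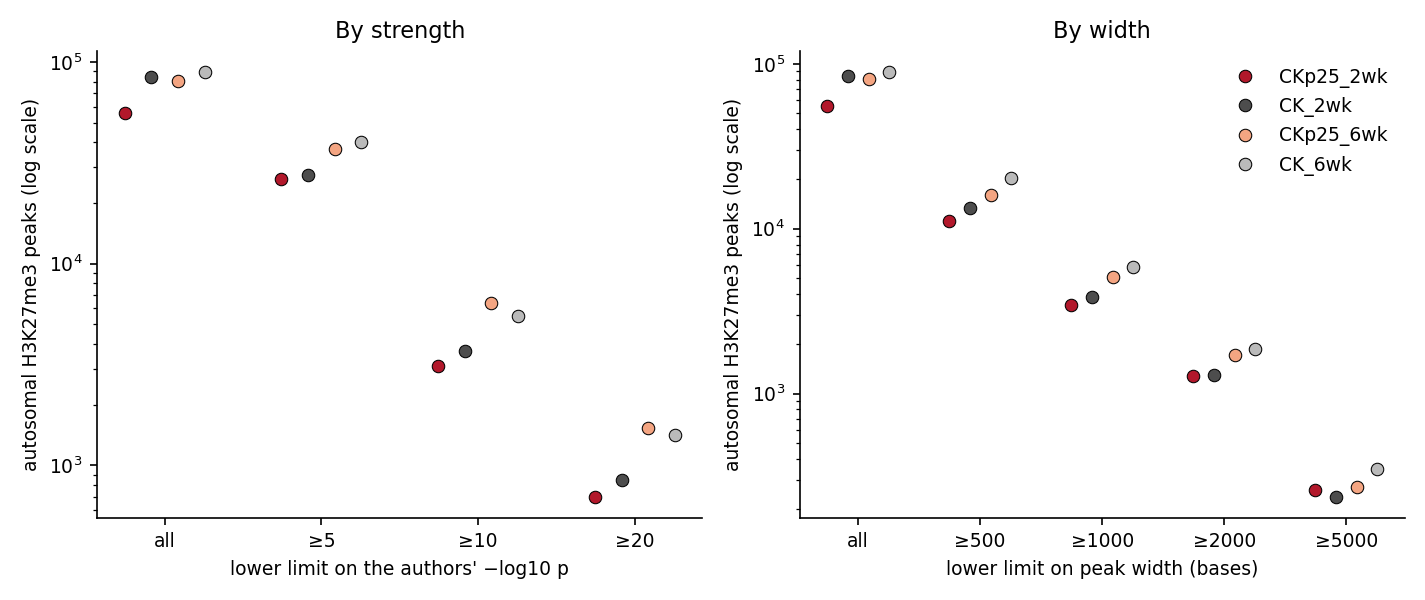
Autosomal H3K27me3 peaks of each list at or above a limit on the authors' −log10 p (left) or on peak width in bases (right), on log axes, 1 point per list. With no limit CKp25_2wk stands apart at 55747 peaks, while at a −log10 p of 5 or more it holds 26149, beside 27497 in CK_2wk.

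Fold enrichment over the whole cell extract, as deposited, was close in all lists. Its median was 2.67 in CKp25_2wk and 2.69 in CK_2wk, and 2.68 in CKp25_6wk and 2.58 in CK_6wk. The median −log10 p was 4.56 in CKp25_2wk, 4.37 in CK_2wk, 4.98 in CKp25_6wk and 4.56 in CK_6wk. Peaks of at least 1 kb stood higher over input, with median folds of 4.44, 4.59, 4.46 and 4.12 in the same order. Wide peaks thus had a higher fold than the list as a whole.

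Most peaks were short, and the mark's bases were shared between many short peaks and a few wide ones. Median width was 305 bases in CKp25_2wk and 275 in CK_2wk, and 294 in CKp25_6wk and 323 in CK_6wk. The shortest peak of each list was 224, 200, 204 and 230 bases in that order, so the medians followed the floor of each list, at 1.36, 1.38, 1.44 and 1.40 times it. Peaks of at least 1 kb numbered 3435 in CKp25_2wk and 3827 in CK_2wk, and 5057 in CKp25_6wk and 5833 in CK_6wk. They were 6.16% of the CKp25_2wk peaks and held 30.1% of its bases; in CK_2wk they were 4.52% and held 24.1%. In CKp25_6wk they held 29.2% of the bases, and in CK_6wk 28.8%. Peaks of at least 5 kb numbered 261 in CKp25_2wk and 237 in CK_2wk, and 270 in CKp25_6wk and 347 in CK_6wk. The widest spanned 18384 bases in CKp25_2wk, 16020 in CK_2wk, 16035 in CKp25_6wk and 21217 in CK_6wk.

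The lower peak number at 2 weeks was spread over the whole genome. All 19 autosomes held fewer peaks in CKp25_2wk than in CK_2wk, with ratios from 0.597 on chromosome 16 to 0.684 on chromosome 14. At 6 weeks 17 of 19 held fewer, from 0.771 on chromosome 3 to 1.04 on chromosome 19; the covered length was lower in CKp25_6wk on all 19. Between controls, peaks were more numerous in CK_6wk than in CK_2wk on 19 of 19. Chromosome 11 was the densest in every list, with 36.9 peaks per Mb in CKp25_2wk, 55.3 in CK_2wk, 55.2 in CKp25_6wk and 57.8 in CK_6wk. Chromosome 16 was the sparsest, with 12.5, 20.9, 19.5 and 22.2 peaks per Mb in the same lists.

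Within chromosomes the mark was piled into few places. The top 10% of the 2482 windows of 1 Mb held 53.8% of the covered bases in CKp25_2wk and 51.2% in CK_2wk, and 49.9% in CKp25_6wk and 49.7% in CK_6wk. The same window, chr11:96000001-97000000 (mm9), was the most covered in all 4 lists, with 262 kb in CKp25_2wk, 291 kb in CK_2wk, 322 kb in CKp25_6wk and 323 kb in CK_6wk. Windows kept their order: Spearman's rho of covered length over the 2482 windows was 0.974 between CKp25_2wk and CK_2wk, 0.960 between CKp25_6wk and CK_6wk, and 0.983 between the control lists. These are descriptions, since the windows share their base composition and mappability. Covered length was lower in CKp25_2wk than in CK_2wk in 1862 windows and higher in 330; lower in CKp25_6wk than in CK_6wk in 1525 and higher in 676; and lower in CK_6wk than in CK_2wk in 324 and higher in 1903.

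Peaks of a list that lay within 3 kb of each other were joined into domains. This gave 24581 domains in CKp25_2wk and 33480 in CK_2wk, and 31224 in CKp25_6wk and 35288 in CK_6wk. Domains of 10 kb or more numbered 867 in CKp25_2wk against 1397 in CK_2wk, and 1330 in CKp25_6wk against 1680 in CK_6wk. They took up 21.3% of the peaks in CKp25_2wk and 25.5% in CK_2wk, and 24.3% in CKp25_6wk and 26.3% in CK_6wk. This direction was not steady: with peaks joined over 1 kb the share was higher in CKp25 than in CK by 0.38 points at 2 weeks and 0.80 at 6 weeks, and with only peaks at a −log10 p of 5 or more it was higher in CKp25_6wk by 0.75 points. Peaks that joined no other were 26.3% in CKp25_2wk, 22.4% in CK_2wk, 21.1% in CKp25_6wk and 21.9% in CK_6wk. The 100th longest domain was 31.0 kb in CKp25_2wk and 37.2 kb in CK_2wk, and 38.7 kb in CKp25_6wk and 39.96 kb in CK_6wk. The longest was 181 kb in CKp25_2wk, 178 kb in CK_2wk and 196 kb in CKp25_6wk, all on chromosome 15, and 191 kb in CK_6wk, on chromosome 6.

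The gap in clustering narrowed once the lists were of equal length. With each list held to its 55747 strongest peaks, the share of peaks in domains of 10 kb or more was 21.3% in CKp25_2wk and 21.9% in CK_2wk, and 21.9% in CKp25_6wk and 22.0% in CK_6wk. Domains of that size then numbered 867 in CKp25_2wk and 893 in CK_2wk, and 924 in CKp25_6wk and 1027 in CK_6wk. The longest domain of every list then lay on chromosome 15, at 181 kb in CKp25_2wk and 178 kb in CK_2wk, and 182 kb in CKp25_6wk and 177 kb in CK_6wk.

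Peaks met in the other list ranged from 35.2% to 51.8% over the pairs and directions. CK_2wk peaks were met less often in CKp25_2wk, the list with the fewest peaks, than in CK_6wk. Of the CKp25_2wk peaks, 51.8% shared at least 1 base with a CK_2wk peak, and of the CK_2wk peaks 35.2% were met in CKp25_2wk. Of the CKp25_6wk peaks, 49.3% were met in CK_6wk, and of the CK_6wk peaks 42.1% in CKp25_6wk. Of the CK_6wk peaks, 41.9% were met in CK_2wk, and of the CK_2wk peaks 49.4% in CK_6wk. The bases in both lists were 30.8% of those in either at 2 weeks, 32.6% at 6 weeks and 31.4% between controls.

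Sharing followed strength. Of the strongest 20% of CKp25_2wk peaks by −log10 p, 85.3% were met in CK_2wk, and of the weakest 20%, 34.3%. Of the strongest 20% of CK_2wk peaks, 71.4% were met in CKp25_2wk, and of the weakest 20%, 17.6%. The same classes gave 83.3% and 31.5% for CKp25_6wk in CK_6wk, and 77.9% and 24.1% for CK_6wk in CKp25_6wk. Between the controls they gave 82.5% and 30.9% for CK_2wk in CK_6wk, and 78.0% and 23.8% for CK_6wk in CK_2wk. Of peaks of at least 1 kb, 99.7% of those in CKp25_2wk were met in CK_2wk and 98.8% of those in CK_2wk in CKp25_2wk; at 6 weeks 98.9% of those in CKp25_6wk and 97.2% of those in CK_6wk were. Every peak of at least 5 kb was met in the other list of its pair, in both directions and between the controls. An overlap of 1 base is easier to reach for a wide peak. Width also rose with −log10 p within each list, with Spearman's rho from 0.54 to 0.58. The part of width in this sharing was not tested.

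**Figure D2:**
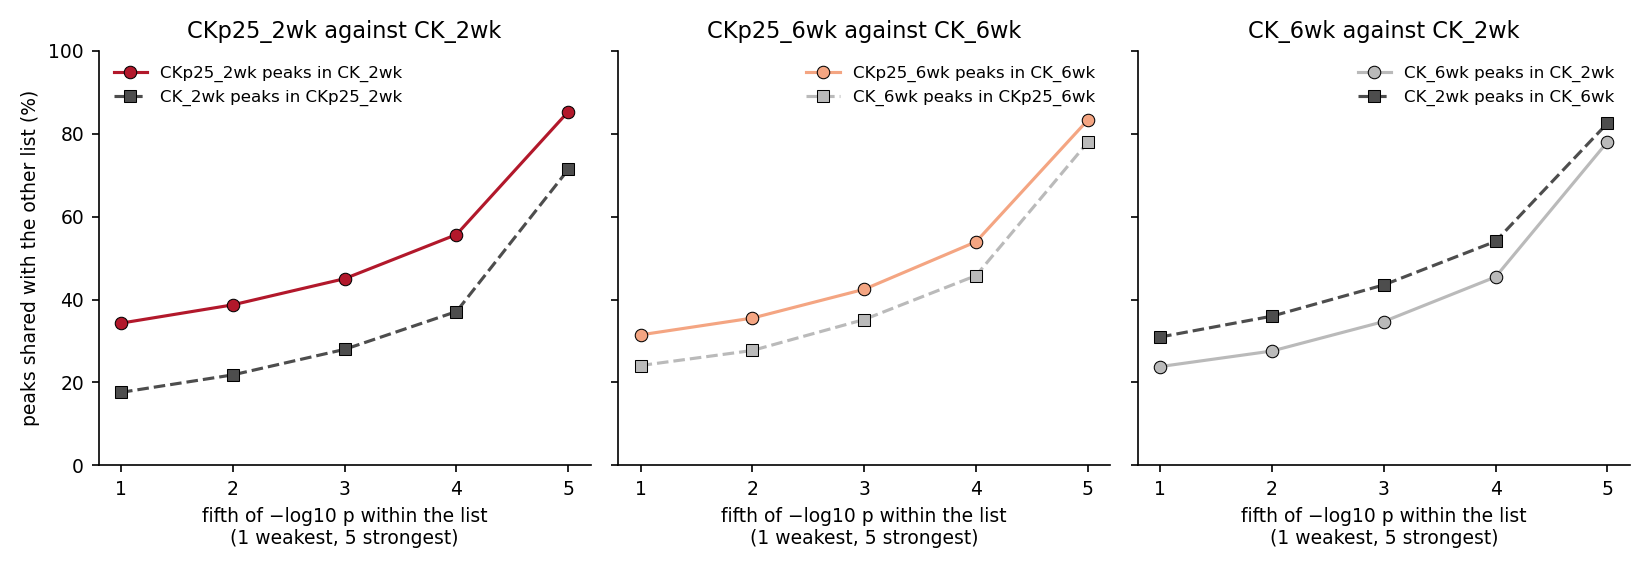
Percent of H3K27me3 peaks that share at least 1 base with the other list of the pair, in 5 equal classes of the deposited −log10 p within each list (1 weakest, 5 strongest), 1 list per line. Sharing climbs with strength in every list, from 34.3% to 85.3% for CKp25_2wk peaks in CK_2wk.

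Joined over the 4 lists, the peaks formed 164660 separate intervals. Those with a peak in all 4 lists numbered 15148 (9.20%); they were wide, with a median of 1255 bases, and made up 26.4 Mb. Those seen in 1 list alone numbered 108495 (65.9%), with a median of 254 bases. Intervals in both CKp25 lists and in no CK list numbered 2660 (1.62%), and intervals in both CK lists and in no CKp25 list 7236 (4.39%). The CK lists held more peaks than the CKp25 lists of the same time, which favours intervals in CK alone. By time instead of genotype, 6909 (4.20%) were in both 6-week lists and no 2-week list, and 2578 (1.57%) in both 2-week lists and no 6-week list. The counts by genotype and by time were thus of similar size.

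Windows of 10 kb in which either list covered at least 1000 bases were called where covered length differed by 2-fold or more. At 2 weeks 2793 of 10307 windows were lower in CKp25_2wk than in CK_2wk (27.1%) and 444 were higher (4.31%). At 6 weeks 3828 of 14437 were lower in CKp25_6wk than in CK_6wk (26.5%) and 1526 were higher (10.6%). Between controls 607 of 13593 were lower in CK_6wk than in CK_2wk (4.47%) and 3248 were higher (23.9%). The share of calls that were lower, 86.3% at 2 weeks, came to 71.0% once covered length was scaled to each list's total, and to 56.7% with equal numbers of peaks. At 6 weeks it was 71.5%, against 60.8% when scaled and 65.3% with equal numbers.

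**Figure D3:**
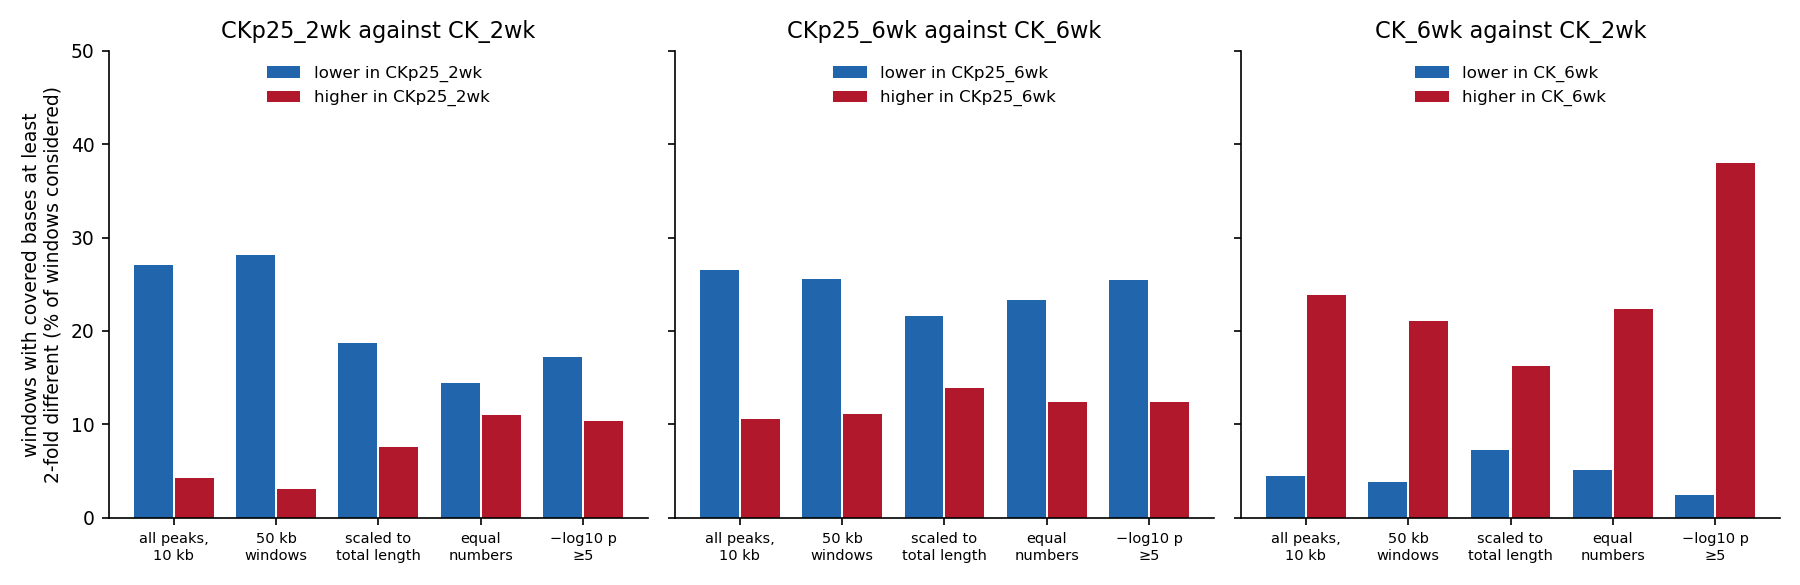
Percent of windows in which covered bases were at least 2-fold lower (blue) or higher (red) in the first-named list, for all peaks in 10 kb windows and for 4 alternatives, without replicates. At 2 weeks the lower share is 27.1% with all peaks and 14.4% with equal numbers of peaks, beside 4.31% and 11.01% higher.

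Windows packed with the mark seldom changed 2-fold. Of the 993 windows in which either list covered at least 5000 bases at 2 weeks, 6 were lower in CKp25_2wk than in CK_2wk (0.604%) and 0 higher (0%). Of 1431 such windows at 6 weeks, 58 were lower in CKp25_6wk than in CK_6wk (4.05%) and 12 higher (0.839%). Of 1305 between controls, 0 were lower in CK_6wk than in CK_2wk (0%) and 18 higher (1.38%). Of the 2793 windows lower in CKp25_2wk, 2126 passed the minimum at 6 weeks as well, and 786 of them (37.0%) were lower in CKp25_6wk too, with 132 (6.21%) higher. Over all 9251 windows that passed at both times these shares were 19.8% and 4.10%. Of the 444 windows higher in CKp25_2wk, 342 passed at 6 weeks, and 60 of them (17.5%) were higher in CKp25_6wk while 71 (20.8%) were lower.

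Broad regions showed the same direction with a smaller size. Peaks of all lists were joined over gaps of 3 kb, and 1154 regions carried at least 5 kb of the mark on average over the 4 lists. Their summed length was 13079 kb in CKp25_2wk and 14801 kb in CK_2wk (ratio 0.884), and 15166 kb in CKp25_6wk and 17201 kb in CK_6wk (ratio 0.882). CKp25_2wk covered less than CK_2wk in 894 regions and CKp25_6wk less than CK_6wk in 818; CK_6wk covered more than CK_2wk in 1037, with a ratio of 1.16. A 2-fold lower length was seen in 34 regions (2.95%) at 2 weeks and 88 (7.63%) at 6 weeks, and a 2-fold higher one in 0 (0%) and 3 (0.26%). In CK_6wk against CK_2wk 0 were 2-fold lower (0%) and 6 higher (0.52%). None of the 1154 regions was without a peak in any list, which their choice by the average over the same 4 lists makes likely. Their lengths were not scaled to each list's total.

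The 4 most covered regions differed little by genotype. They are placed in mm9 without an annotation of that build, and therefore carry no gene names here; the mouse Hoxc, Hoxa, Hoxb and Hoxd genes lie on chromosomes 15, 6, 11 and 2, and whether these regions hold them was not checked. The most covered region, chr15:102711277-102907568, carried 160 kb of H3K27me3 in CKp25_2wk and 159 kb in CK_2wk, and 165 kb in CKp25_6wk and 164 kb in CK_6wk. The region chr6:52089663-52283101 carried 155 kb in CKp25_2wk and 157 kb in CK_2wk, and 158 kb in CKp25_6wk and 160 kb in CK_6wk. The region chr11:96087984-96253023 carried 126 kb in CKp25_2wk and 124 kb in CK_2wk, and 128 kb in CKp25_6wk and 134 kb in CK_6wk.

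The next in size were chr2:74474342-74611110 and chr7:144378727-144544667. The one on chromosome 2 carried 113 kb in CKp25_2wk and 112 kb in CK_2wk, and 112 kb in CKp25_6wk and 113 kb in CK_6wk. The one on chromosome 7 carried 94.2 kb in CKp25_2wk and 102 kb in CK_2wk, and 97.5 kb in CKp25_6wk and 115 kb in CK_6wk. The 4 most covered regions thus stayed within 6.06 kb of their controls, and the chromosome 7 region was lower in CKp25 by 8.34 kb and 17.1 kb. H3K36me3 covered 0 kb in all 5 regions in all groups. H3K4me3, the mark of promoters, was present in all 5, for example 4.88 kb in CKp25_2wk and 2.71 kb in CK_2wk on chromosome 15.

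Losses of covered length seen at both times were larger and more numerous than gains, in lengths not scaled to each list's total. That total was smaller in CKp25 at both times, with ratios to CK of 0.765 at 2 weeks and 0.838 at 6 weeks, which favours losses. Of 49297 regions outside chromosome 18, 341 (0.692%) carried at least 2 kb less in CKp25 than in CK at both times, and 2 (0.00406%) at least 2 kb more. In each comparison alone, 632 were lower and 17 higher by 2 kb in CKp25_2wk than in CK_2wk (1.28% and 0.0345%), and 999 lower and 273 higher in CKp25_6wk than in CK_6wk (2.03% and 0.554%). In CK_6wk against CK_2wk, 12 were lower and 822 higher (0.0243% and 1.67%).

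The 5 largest losses and gains were ranked by the smaller of the differences at the 2 times, so their direction is part of how they were chosen. The largest loss lay at chr9:107251389-107388320, which carried 52.3 kb in CKp25_2wk and 69.7 kb in CK_2wk, and 63.5 kb in CKp25_6wk and 81.8 kb in CK_6wk. The second, chr4:153814964-153951832, carried 25.3 kb in CKp25_2wk and 39.99 kb in CK_2wk, and 47.7 kb in CKp25_6wk and 57.3 kb in CK_6wk. The controls themselves stood 12.1 kb apart at the first and 17.3 kb apart at the second, higher in CK_6wk than in CK_2wk. At the second region the time difference within CK was thus larger than the genotype difference at either time, and at the first it was smaller.

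2 further losses were steadier between the controls. At chr7:122227780-122292498 the mark covered 12.04 kb in CKp25_2wk and 20.9 kb in CK_2wk, and 11.9 kb in CKp25_6wk and 25.5 kb in CK_6wk. At chr17:67839104-67884138 it covered 6.16 kb in CKp25_2wk and 14.7 kb in CK_2wk, and 6.04 kb in CKp25_6wk and 15.6 kb in CK_6wk. Both CKp25 lists lay below both CK lists at each of them, and the controls were 4.61 kb and 0.94 kb apart. The fifth loss, chr2:28790279-28915313, carried 42.2 kb in CKp25_2wk and 54.3 kb in CK_2wk, and 56.3 kb in CKp25_6wk and 64.8 kb in CK_6wk.

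The gains were small. At chr8:73011808-73026661 the mark covered 8.62 kb in CKp25_2wk and 6.36 kb in CK_2wk, and 11.4 kb in CKp25_6wk and 7.68 kb in CK_6wk. At chr19:41807964-41819847 it covered 3.27 kb in CKp25_2wk and 1.28 kb in CK_2wk, and 4.55 kb in CKp25_6wk and 1.57 kb in CK_6wk, with a highest fold of 3.85 in CKp25_2wk and 2.69 in CK_2wk, and 6.24 in CKp25_6wk and 3.44 in CK_6wk. The other gains, chr10:61054703-61068272, chr7:25962361-25969258 and chr2:164751814-164767512, carried between 2.80 and 6.12 kb in the CKp25 lists and between 0.98 and 3.04 kb in the CK lists. H3K4me3 was listed at all 5 gains in all groups, at up to 7.64 kb on chromosome 19.

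**Figure D4:**
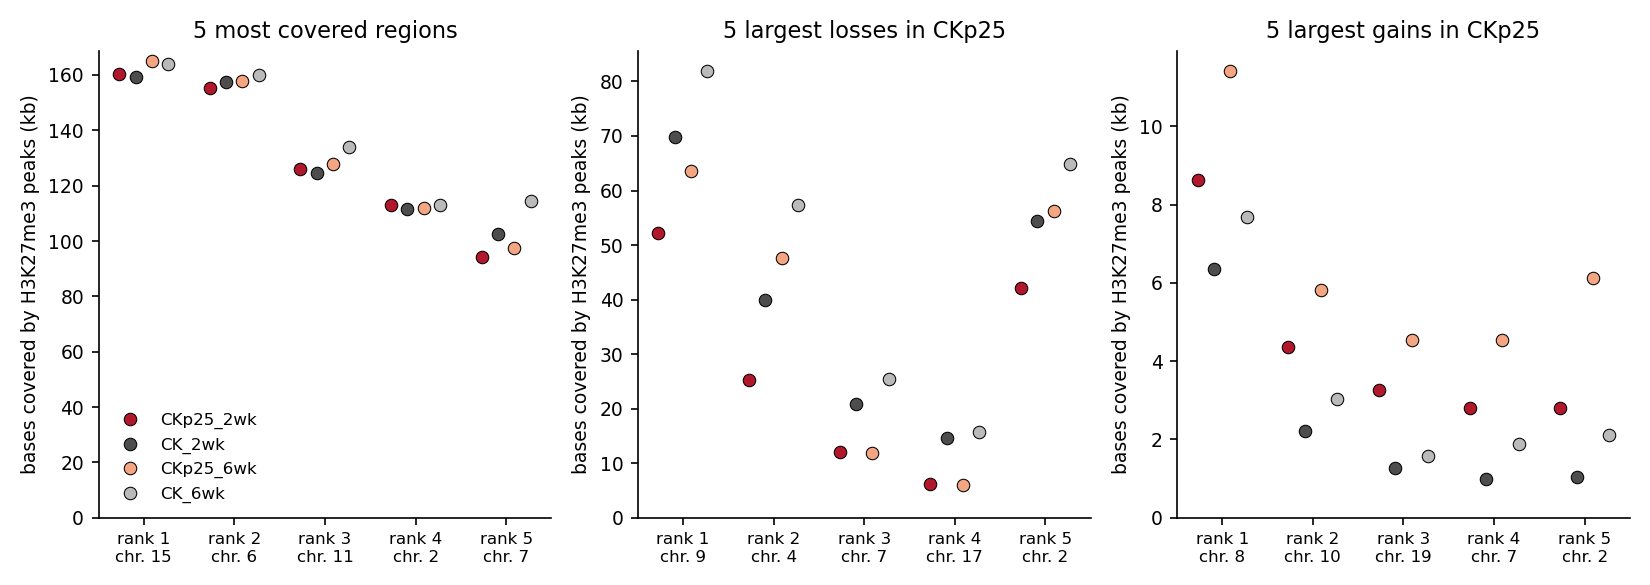
Kilobases covered by H3K27me3 peaks in each list (1 point per list, no replicates) at the 5 most covered regions, the 5 largest losses and the 5 largest gains in CKp25, chosen outside chromosome 18. The 4 most covered regions lie close together, as at 160 kb in CKp25_2wk and 159 kb in CK_2wk. The fifth is lower in CKp25 by 8.34 kb at 2 weeks and 17.1 kb at 6 weeks. The losses and gains were picked for their separation.

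The single strongest peaks were of 2 kinds. Outside chromosome 18 the highest −log10 p in CKp25_2wk, CK_2wk and CK_6wk was at one place, chr17:39983959-39985872, with 83.0 in CKp25_2wk, 72.2 in CK_2wk, 69.7 in CKp25_6wk and 89.97 in CK_6wk. Its fold was low beside that p, at 3.12 in CKp25_2wk and 3.01 in CK_2wk, and 2.79 in CKp25_6wk and 3.05 in CK_6wk. In CKp25_2wk H3K9me3 peaks covered 1878 of its 1914 bases, H3K4me1 peaks 1529, H3K36me3 peaks 363 and H3K27ac peaks 358. Peaks of all 6 other marks lay there in CKp25_2wk, CKp25_6wk and CK_6wk, and in CK_2wk all but H3K36me3 and H3K27ac. Whether this place carries H3K27me3 or gathers reads in any library was not tested. The neighbour at chr17:39979856-39983880 was the second in the same 3 lists, with a fold of 2.76 in CKp25_2wk and 2.58 in CK_2wk.

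The other leading peaks had high folds. In CKp25_2wk the third was chr15:35221899-35228183, with a fold of 10.7 and a −log10 p of 51.6, met by a CK_2wk peak with a fold of 7.64. In CKp25_6wk the leaders were chr3:107395679-107402459, with a fold of 12.2 in CKp25_6wk and 11.6 in CK_6wk, and chr2:172373296-172377395, with 11.98 in CKp25_6wk and 9.80 in CK_6wk. In CK_2wk the third was chr19:43685515-43691275, with 7.91 in CKp25_2wk and 11.2 in CK_2wk. In CK_6wk the third was chr11:33094784-33108099, with 8.96 in CKp25_6wk and 11.8 in CK_6wk. Each was picked as a leader of 1 list, so the direction within that pair is part of the choice. At the other time the chromosome 15 peak had a fold of 9.18 in CKp25_6wk and 10.4 in CK_6wk. Those of chromosomes 3 and 2 had 7.10 and 7.70 in CKp25_2wk, against 8.94 and 8.86 in CK_2wk. The peaks of chromosomes 19 and 11, picked from CK lists, were lower in CKp25 at the other time too, by little. The chromosome 19 peak had a fold of 9.57 in CKp25_6wk and 10.6 in CK_6wk. The chromosome 11 peak had 9.78 in CKp25_2wk and 10.1 in CK_2wk. Each list was called on its own, which limits the comparison of folds between lists.

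H3K27me3 peaks met the promoter mark H3K4me3 more often in CKp25 than in CK at both times. H3K4me3 was met by 17.1% of the CKp25_2wk peaks and 12.1% of the CK_2wk peaks, and by 17.3% of the CKp25_6wk peaks and 12.7% of the CK_6wk peaks. Regions with both marks are called bivalent and are known from promoters of developmental genes. The H3K4me3 lists covered 3.39% of the autosomes in CKp25_2wk and 3.04% in CK_2wk, and 3.58% in CKp25_6wk and 3.31% in CK_6wk. Relative to that, the share of H3K27me3 bases under H3K4me3 was 5.44 times the autosomal share in CKp25_2wk and 4.57 times in CK_2wk, and 5.65 times in CKp25_6wk and 4.47 times in CK_6wk.

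With the same 47649 H3K4me3 intervals, those present in all 4 H3K4me3 lists, used for each group, the shares were 16.0% in CKp25_2wk and 12.6% in CK_2wk, and 15.6% in CKp25_6wk and 12.3% in CK_6wk. With equal numbers of H3K27me3 peaks they were 17.1% in CKp25_2wk and 14.8% in CK_2wk, and 17.3% in CKp25_6wk and 13.4% in CK_6wk. The direction was the same each time, and the gap at 2 weeks was 2.35 percentage points with equal numbers, against 4.98 with all peaks. The controls differed by 0.59 points with all peaks. Among peaks of at least 1 kb, 57.3% met H3K4me3 in CKp25_2wk and 50.7% in CK_2wk, and 58.8% in CKp25_6wk and 49.3% in CK_6wk.

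The enhancer marks went the same way with all peaks and each group's own lists. Shares with equal numbers of peaks are given for H3K4me3 only. For H3K27ac the controls differed as well, at 9.43% in CK_2wk and 8.41% in CK_6wk. H3K4me1 was met by 15.8% of the CKp25_2wk peaks and 12.6% of the CK_2wk peaks, and by 16.1% of the CKp25_6wk peaks and 12.2% of the CK_6wk peaks. H3K27ac, which sits on the same lysine and so excludes the methyl mark on that histone tail, was met by 10.9% of the CKp25_2wk peaks and 9.43% of the CK_2wk peaks, and by 12.9% of the CKp25_6wk peaks and 8.41% of the CK_6wk peaks. H3K9me3, the mark of constitutive heterochromatin, was met by 3.20% of the CKp25_2wk peaks and 3.19% of the CK_2wk peaks, and by 3.86% of the CKp25_6wk peaks and 3.76% of the CK_6wk peaks. It covered less than 1% of the autosomes in every group, so its base share stood at 4.65 times the autosomal share in CKp25_2wk and 3.71 in CK_2wk, and 3.75 in CKp25_6wk and 3.73 in CK_6wk.

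The gene body marks were scarce under H3K27me3. H3K36me3 was met by 1.15% of the CKp25_2wk peaks and 0.916% of the CK_2wk peaks, and by 1.48% of the CKp25_6wk peaks and 0.964% of the CK_6wk peaks. Its base share was 0.087 of the autosomal share in CKp25_2wk and 0.080 in CK_2wk, and 0.132 in CKp25_6wk and 0.084 in CK_6wk. H4K20me1 stood at 0.47 in CKp25_2wk and 0.39 in CK_2wk, and at 0.57 in CKp25_6wk and 0.41 in CK_6wk. Both marks were thus scarcer under H3K27me3 than over the autosomes in all 4 groups, with the highest values in CKp25_6wk.

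**Figure D5:**
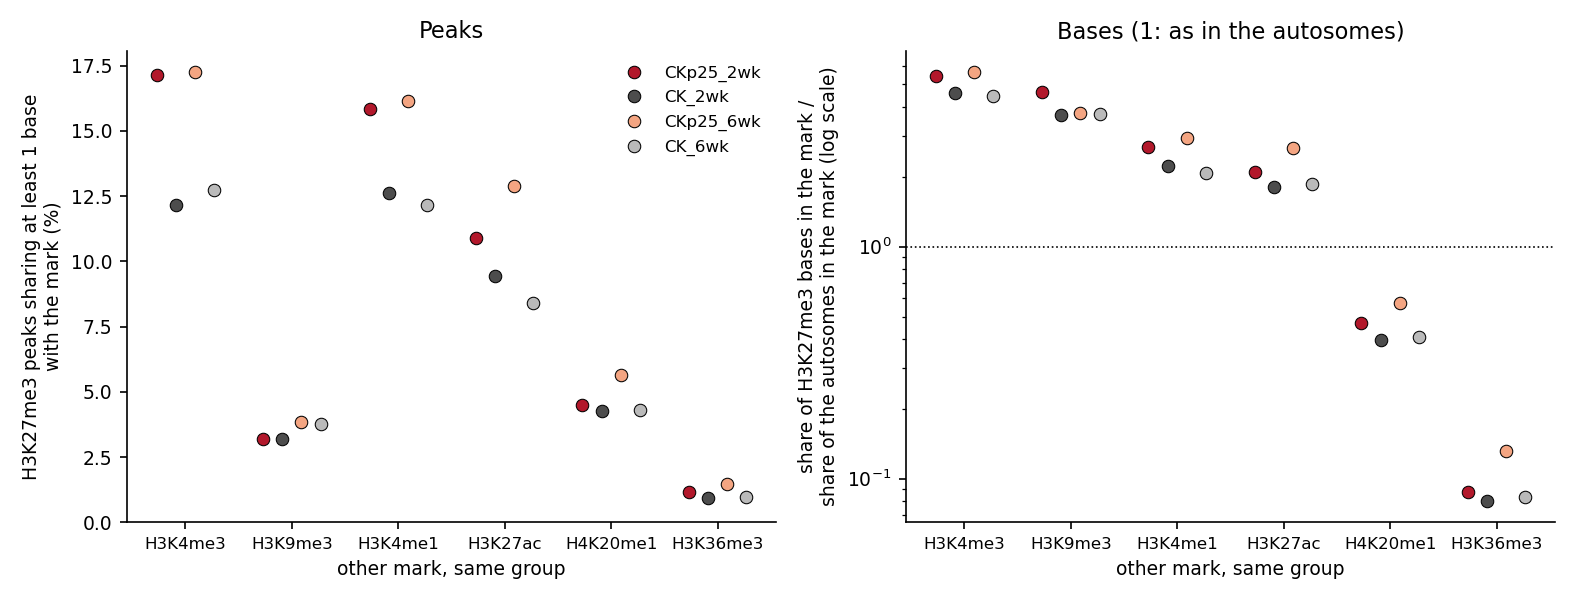
Percent of H3K27me3 peaks that share at least 1 base with each other mark of the same group (left), and the share of H3K27me3 bases under the mark divided by the autosomal share of that mark (right, log axis), 1 point per list. H3K4me3 is met by 17.1% and 17.3% of peaks in CKp25_2wk and CKp25_6wk, against 12.1% and 12.7% in CK_2wk and CK_6wk, and H3K36me3 lies far below 1 in every group.

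In the 786 windows where H3K27me3 was at least 2-fold lower at both times, the summed length of H3K27ac peaks was larger in CKp25_6wk than in CK_6wk. H3K27ac peaks covered 0.420 kb per window in CKp25_6wk and 0.239 kb in CK_6wk, a ratio of 1.76, and 0.336 kb in CKp25_2wk and 0.292 kb in CK_2wk, a ratio of 1.15. In all 9251 windows that passed at both times the ratios were 1.28 at 6 weeks and 0.976 at 2 weeks. H3K27ac was present in 31.0% of the 786 windows in CKp25_6wk and in 20.9% in CK_6wk. H3K36me3 gave ratios of 2.23 at 6 weeks and 1.32 at 2 weeks in the 786 windows, against 1.39 and 1.28 in all. The 6-week ratio is of low values, 0.136 kb per window in CKp25_6wk and 0.061 kb in CK_6wk. H3K36me3 was present in 10.1% of the 786 windows in CKp25_6wk and in 4.96% in CK_6wk. At 6 weeks H3K27ac itself was at least 2-fold higher in CKp25_6wk in 44 of the 786 windows and lower in 2. Over all 9251 windows 399 (4.31%) were higher and 48 (0.519%) lower, so the share higher was only slightly larger in the 786. H3K36me3 was higher in 22 of the 786 and lower in 0, against 107 (1.16%) and 17 (0.184%) of the 9251. Most of the 786 windows held no such difference in either mark. These are values of lists without replicates, and the windows were picked on H3K27me3 alone.

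RNA from the same groups, with 3 libraries in each, shows the enzymes of the mark. Of 21 listed genes for writers, accessory subunits, readers and erasers, 20 were measured and 1 (Ezhip) matched no identifier. By edgeR's quasi-likelihood test with Benjamini-Hochberg adjustment over 14457 genes, 3 were higher in CKp25_2wk than in CK_2wk and 2 lower, where 11.6% and 7.99% of all genes were. At 6 weeks 3 were higher in CKp25_6wk than in CK_6wk and 3 lower, where 18.1% and 15.2% of all genes were. These counts are near the share of all genes. The median log2 fold change of the list was 0.03 at 2 weeks and -0.12 at 6 weeks, against -0.01 and 0.00 over all genes.

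Of the core PRC2 genes, Suz12 and Rbbp7 rose at 2 weeks, and Eed and Rbbp4 rose and Ezh1 fell at 6 weeks. Ezh2 stood at 11.5, 13.7 and 17.8 CPM, the counts scaled to library size, in CKp25_2wk, against 9.39, 9.61 and 10.6 in CK_2wk, and at 11.999, 12.6 and 15.8 in CKp25_6wk, against 13.2, 6.88 and 10.3 in CK_6wk. All CKp25_2wk libraries lay above all CK_2wk libraries, while the 6-week groups overlapped; neither difference passed (edgeR log2 fold changes of 0.54 ± 0.21 and 0.41 ± 0.21 (SE), adjusted p = 0.084 and 0.157). Ezh2 was called at 2 weeks with no filter on low counts (edgeR adjusted p = 0.031) and without CKp25_2wk_4518 (0.036), and at 6 weeks without CK_6wk_3936 (0.049). Ezh1, the catalytic subunit more typical of non-dividing cells, fell in CKp25_6wk by 0.35 on the log2 scale (edgeR adjusted p = 0.00497), at 68.6, 66.5 and 75.8 CPM against 81.8, 96.7 and 89.6 in CK_6wk. Eed rose in CKp25_6wk by 0.76 (edgeR adjusted p = 0.0081), at 8.80, 8.21 and 12.003 CPM against 6.10, 5.46 and 5.59 in CK_6wk; without library CKp25_6wk_4008 the edgeR adjusted p was 0.055. Suz12 rose in CKp25_2wk by 0.39 (edgeR adjusted p = 0.0062), at 38.2, 39.3 and 42.2 CPM against 32.0, 29.3 and 30.1 in CK_2wk, and its 6-week log2 fold change was 0.15 (edgeR adjusted p = 0.243).

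Phf19, an accessory subunit that guides PRC2 to chromatin, was the member with the largest fold change. It stood at 2.92, 3.15 and 4.25 CPM in CKp25_2wk and at 0.503, 0.205 and 0.203 in CK_2wk, and at 1.80, 2.09 and 2.73 in CKp25_6wk and 0.610, 0.202 and 0.698 in CK_6wk. The groups did not overlap at either time, at a low level in CK. The edgeR log2 fold changes were 3.35 ± 0.47 and 2.06 ± 0.47 (SE), with adjusted p = 5.5e-05 and 0.0025. In a fit of the 6 libraries of 6 weeks alone Phf19 did not pass the filter on low counts and has no value. The reader Cbx6 fell at both times, to 236, 208 and 195 CPM in CKp25_2wk against 271, 274 and 243 in CK_2wk, and to 176, 204 and 187 in CKp25_6wk against 268, 267 and 235 in CK_6wk. Its edgeR log2 fold changes were -0.30 and -0.44 (adjusted p = 0.0197 and 0.00091). The first was no longer called without CKp25_2wk_4890, CKp25_2wk_4894, CK_2wk_4520 or CK_2wk_4891, at edgeR adjusted p values up to 0.127.

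Rbbp7 rose and Cbx7 fell in CKp25_2wk, with edgeR log2 fold changes of 0.26 and -0.34 (adjusted p = 0.033 and 0.013). Rbbp7 was no longer called without any 1 of the 3 CKp25_2wk libraries, CK_2wk_4891 or CK_2wk_4893 (edgeR adjusted p up to 0.133), nor Cbx7 without CKp25_2wk_4894, CK_2wk_4891 or CK_2wk_4893 (up to 0.0725). Rbbp4 rose and Mtf2 fell in CKp25_6wk, by edgeR log2 fold changes of 0.19 and -0.24 (adjusted p = 0.049 and 0.045), and these were not called in 14 and 9 of 16 alternative fits. The erasers did not pass: Kdm6a had log2 fold changes of 0.07 and 0.06 and Kdm6b of 0.25 and -0.30 at 2 and 6 weeks (edgeR adjusted p from 0.128 to 0.616). A test of the difference between the times gave no call among the 20 genes, with a lowest edgeR adjusted p of 0.095, for Rbbp7. The counts of called members themselves went to 2 at 2 weeks without CKp25_2wk_4894 or CK_2wk_4891, to 3 without CKp25_2wk_4890 or CK_2wk_4893, and to 3 at 6 weeks without CKp25_6wk_4008.

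Hippocampal neuron genes, which check the tissue label, were expressed in all 12 libraries and also moved with genotype. Camk2a, a kinase of excitatory neurons, averaged 1004 ± 107 CPM in CKp25_2wk and 1517 ± 70.9 in CK_2wk, and 739 ± 112 in CKp25_6wk and 1444 ± 160 in CK_6wk (SD, n = 3 libraries each; edgeR adjusted p = 0.00089 and 5.7e-06). Neurod6, a pyramidal neuron factor, averaged 74.1 ± 7.78 CPM in CKp25_2wk and 110 ± 1.87 in CK_2wk, and 51.2 ± 10.6 in CKp25_6wk and 103 ± 9.82 in CK_6wk (SD, n = 3 libraries each; edgeR adjusted p = 0.0018 and 8.7e-06). Of the 5 neuron genes looked at, Prox1 and Wfs1 were lower in CKp25_6wk as well, and Zbtb20 was not called at either time. The part of this shift in the peak lists was not tested.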

How the data were processed

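H3K27me3 chromatin immunoprecipitation of hippocampus was sequenced for 4 groups. The authors deposited 1 narrow-peak list per group, called over whole cell extract, with mm9 coordinates; the submitters' processing notes name Bowtie, Picard and MACS2, with no settings. Each peak's fold (a ratio over whole cell extract) and −log10 p are the authors' deposited values; whether replicates were pooled is not stated. RNA values are the deposited counts per gene of 12 libraries (HTSeq 0.6.1 in the notes), with 5029996 to 6450140 gene counts each; rows that name no gene held 60.0 to 63.6% of reads and were left out. No label ties a library to a mouse, so the RNA p-values reflect spread between libraries, which may be technical.

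Intervals were compared with Python 3 scripts, checked on simulated intervals; chromosome X and the mitochondrial genome were left out. RNA was tested with edgeR 4.0.16 (filterByExpr, TMM, quasi-likelihood, threshold 0.05 on the adjusted p), with DESeq2 1.42.0 as an alternative, and tested on simulated data. Regions were named by rank: the 5 most covered, the 5 largest losses and gains at both times and the 3 highest −log10 p of each list, outside chromosome 18; genes were those of a list of H3K27me3 enzymes. Members and lists were chosen with earlier results of these data known. No sequence is shown, since no mm9 genome was used here.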

Additional observations from a re-analysis of the deposited data

Results flagged for a closer look

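Several features of the lists went one way at 2 weeks and the other way at 6 weeks. With 1 list per group none of these differences between times was tested. The number of peaks with a −log10 p of at least 10 gave a CKp25 over CK ratio of 0.849 at 2 weeks and 1.16 at 6 weeks, and for at least 20 the ratios were 0.829 and 1.08. The number of peaks of at least 5 kb gave 1.10 at 2 weeks and 0.778 at 6 weeks. Median width gave 1.11 and 0.910 and mean width 1.16 and 0.930, beside ratios of 1.12 and 0.887 for the shortest peak of the lists. The median width went the same way at both times under other settings: the difference between CKp25 and CK was -14 bases at 2 weeks and -33 at 6 weeks with a −log10 p of at least 5, and -8 and -43 with equal numbers of peaks. On chromosome 15 the peak number gave 0.649 at 2 weeks and 1.03 at 6 weeks, and on chromosome 19 it gave 0.684 and 1.04.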

How the results depend on the processing

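Peak lists without replicates give no error to set these shifts against. With a −log10 p of at least 5, the CKp25 over CK ratio of peak numbers was 0.951 at 2 weeks and 0.921 at 6 weeks, and that of covered length 0.952 and 0.864; with equal numbers of peaks covered length gave 0.980 and 0.889. Peaks of CKp25_2wk met in CK_2wk were 47.7% with the −log10 p limit, 43.8% with equal numbers and 39.0% when at least 50% of the peak had to be covered, and CK_2wk peaks met in CKp25_2wk were 45.8%, 43.4% and 25.7%. For CKp25_6wk in CK_6wk the same alternatives gave 50.9%, 47.3% and 39.0%, and for CK_6wk in CKp25_6wk 43.6%, 44.2% and 30.3%. Windows lower in CKp25_2wk numbered 982 of 5700 (17.2%) with the −log10 p limit and 1255 of 8720 (14.4%) with equal numbers. With all peaks in 10 kb windows they numbered 2793 of 10307 (27.1%). Windows higher in CKp25_2wk numbered 960 of 8720 (11.01%) with equal numbers, 239 of 7630 (3.13%) at 50 kb and 786 of 10307 (7.63%) when scaled. With all peaks in 10 kb windows they numbered 444 of 10307 (4.31%). Windows lower in CKp25_6wk numbered 2329 of 9156 (25.4%) with the −log10 p limit and 2497 of 9752 (25.6%) at 50 kb. With all peaks in 10 kb windows they numbered 3828 of 14437 (26.5%). In these settings fewer windows passed the minimum, and the share that was lower changed little. The median width difference at 2 weeks turned from 30 bases to -14 with the −log10 p limit and -8 with equal numbers. The difference in the percent of peaks in domains of 10 kb or more turned to 0.38 at 2 weeks and 0.80 at 6 weeks with a 1 kb gap, to 0.75 at 6 weeks with the −log10 p limit, and to -0.14 between controls with that limit; a 10 kb gap kept it negative, at -7.39 and -2.66. The last 2 alternatives were chosen after seeing the data: the difference in the percent of peaks with H3K4me3 was 3.38 points at 2 weeks and 3.33 at 6 weeks with common H3K4me3 intervals (-0.33 between controls), and 2.35 and 3.87 with equal numbers. The cause of these shifts was not tested.

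Called enzyme genes ranged from 2 to 6 at 2 weeks and from 3 to 7 at 6 weeks when each of 12 libraries was left out, and were 3 at 6 weeks in a fit of the 6 libraries of that time, in which Phf19 did not pass the filter on low counts. Genes called in all ranged from 1806 (without CKp25_2wk_4894) to 3056 at 2 weeks and from 3501 to 5054 at 6 weeks. No paired analysis was possible because there is 1 peak list per group and the RNA libraries of the groups share no replicate numbers. Depth of the ChIP libraries is unknown here, which limits what the number of weak peaks can show.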

Other observations

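Chromosome X, outside the comparisons above, carried the mark at several times the autosomal density in these female mice, in whose cells the inactive X is known to bear H3K27me3. It held 125 peaks per Mb in CKp25_2wk and 187 in CK_2wk, and 143 in CKp25_6wk and 183 in CK_6wk, against 22.5, 34.2, 32.5 and 36.1 per Mb of the autosomes of the same lists. X over autosomes was thus 5.56-fold in CKp25_2wk and 5.47-fold in CK_2wk, and 4.38-fold in CKp25_6wk and 5.08-fold in CK_6wk. The ratio of X peak numbers was 0.669 at 2 weeks and 0.778 at 6 weeks for CKp25 over CK, and 0.979 for CK_6wk over CK_2wk. Peaks on X were short: 1.19% of them reached 1 kb in CKp25_2wk and 1.16% in CK_2wk, and 1.55% in CKp25_6wk and 2.51% in CK_6wk.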
